A study of Pimephales promelas with 51 samples.

Results

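The 10 crystallin genes described here encode the main soluble proteins of the eye lens, and were measured in whole larvae of the fathead minnow exposed to a synthetic glucocorticoid. They were taken by symbol from the gene counts (cryaa, cryaba, cryabb, cryba1b, cryba2a, cryba2b, cryba4, crybb1, crybb2 and crygn2) and make up 10 of the 36695 genes counted. Of the 10, 7 passed the filter on low counts and were tested, and cryaba, cryabb and crybb2 did not. The fathead minnow (Pimephales promelas) is a North American freshwater fish that toxicologists use as a test species. Larvae of the strain GLTED-Duluth-wt, aged 5-6 days after fertilisation and of undetermined sex, were kept for 24 h with dexamethasone, fluticasone propionate or the solvent DMSO. Both compounds are fluorinated corticosteroids that activate the glucocorticoid receptor. The data comprised 51 libraries, 3 in each of 17 groups.

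Dexamethasone was given at labelled concentrations of 0.008, 0.025, 0.08, 0.25, 0.8, 2.5, 8 and 25 µM, which were measured as 0.0066, 0.0189, 0.055, 0.1784, 0.5259, 2.03, 6.5817 and 23.6726 µM. Fluticasone propionate was given at 0.003, 0.006, 0.01, 0.019, 0.034, 0.06, 0.1 and 0.19 µM, measured as 0.0019, 0.0028, 0.0046, 0.0072, 0.0108, 0.0158, 0.0338 and 0.0597 µM. A further group received DMSO alone. Groups are named below by the labelled concentration. RNA came from pooled homogenates of whole bodies, so the lens is a small part of each sample. In such bulk samples, fewer lens cells and less crystallin RNA per cell cannot be told apart. The labels do not say that the 3 libraries of a group came from separate tanks, so each p-value is set against a spread between libraries that may be technical.

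The transparency of the lens rests on very high concentrations of crystallins in its elongated fibre cells, which lose their nuclei and keep these proteins for life. The α-crystallins are small heat shock proteins that hold damaged proteins in solution. The β- and γ-crystallins form a second, structurally related family that packs densely and gives the lens its refractive index. In people, long treatment with glucocorticoids is a known cause of posterior subcapsular cataract, and the lens is therefore a tissue of interest for this class of drug.

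Libraries held between 1316614 and 2097358 reads assigned to genes, with a median of 1618729. Levels are given as CPM, counts scaled to 1000000 reads assigned to genes after TMM normalisation of the library sizes, and the pooled levels of genes with few reads as plain CPM over all libraries together. In this 3′ sequencing method a transcript gives a read at its 3′ end whatever its length, so CPM was not divided by length. A difference in CPM between genes can still come from how well each 3′ end is annotated. The target gene fkbp5, which encodes a chaperone induced by the glucocorticoid receptor, averaged 623.5 ± 12.4 CPM with dexamethasone 25 µM and 362.4 ± 40.1 CPM with fluticasone propionate 0.19 µM, against 127.2 ± 24.0 CPM with DMSO (SD, n = 3 each). Libraries differed in the share of reads outside counted genes, which ranged between 22.6 and 33.6% of all reads. That share was above 30% in 7 libraries, of which 6 were dexamethasone, 1 was fluticasone propionate and 0 were DMSO. The dexamethasone libraries were replicate A at 0.025, 0.08, 0.25, 0.8 and 8 µM and replicate B at 0.25 µM. The fluticasone propionate library was replicate C at 0.019 µM.

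Of the 10 crystallins, 6 of the β and γ families averaged above 100 CPM, and crybb2 and the α-crystallins lay below that. The most abundant was crygn2, a γN-crystallin, with a mean of 523.2 CPM over the 51 libraries and a range of 392.4 to 703.0 CPM. The acidic β-crystallin cryba4 followed with a mean of 439.7 CPM and a range of 296.4 to 589.2 CPM. Together these genes made up a large part of the summed level of the 7 tested crystallins, of which crygn2 held 27.7% and cryba4 23.2% on average. The other acidic β-crystallins were cryba2a with a mean of 311.0 CPM, cryba1b with 295.4 CPM and cryba2b with 150.2 CPM. The pair cryba2a and cryba2b are 2 gene copies of a single mammalian gene, and cryba2a was the higher in all 51 libraries. The basic β-crystallin crybb1, which joins acidic partners in β-crystallin oligomers, averaged 137.0 CPM with a range of 95.2 to 185.6 CPM. In the reference gene table of assembly fPimPro1.hap1.1, crybb1 and cryba4 overlap each other, and cryba4 also overlaps acads. The strand setting of the counting is not given in the sources used here, so reads of these neighbours may be mixed.

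Among the α-crystallins, cryaa averaged 32.7 CPM, with a range of 19.5 to 44.8 CPM, and held 1.74% of the summed level of the 7. Its counts lay between 32 and 78 reads per library, so its values carry more counting error than those of crygn2, with between 579 and 1163 reads. The pair cryaba and cryabb correspond to the single αB-crystallin gene of mammals. No read was assigned to cryaba in any library. That is 0 of 82635583 reads assigned to genes, which allows a level of up to 0.0363 CPM over all libraries, for counting error only. The gene cryabb had 50 reads in all, in 30 of the 51 libraries and at most 7 in one of them, a pooled level of 0.605 CPM. It overlaps cfap68 in the reference table, so the origin of these few reads is uncertain.

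The basic β-crystallin crybb2, the most abundant β-crystallin of the adult mammalian lens, was also near the detection limit in these larvae. It had 84 reads in 30 of the 51 libraries, a pooled level of 1.02 CPM. With dexamethasone 25 µM the 3 libraries held 4, 0 and 4 reads, and with fluticasone propionate 0.19 µM they held 0, 1 and 6, against 2, 5 and 7 with DMSO. With dexamethasone 0.08 µM all 3 libraries were at 0. The counts thus overlapped between the highest concentrations and DMSO. When the filter on low counts was left out, cryabb and crybb2 gave 44 tests over all comparisons, 15 with an unadjusted p under 0.05, and the lowest adjusted p by the edgeR quasi-likelihood test was 0.112. The share of all genes with such an unadjusted p in these unfiltered fits was not counted. The 16 comparisons with DMSO share the same 3 DMSO libraries, and DMSO had the highest group mean for crybb2, at 2.94 ± 1.81 CPM (SD, n = 3). Some of the low p values used no DMSO library. The lowest adjusted p was that of the cryabb slope on log10 dexamethasone concentration, 0.797 ± 0.248 (SE, unadjusted p = 0.00219, same test). For crybb2 that slope was 0.857 ± 0.282 (unadjusted p = 0.00359, adjusted p = 0.147, same test). With fluticasone propionate the slopes were −0.589 and 0.0313, with unadjusted p of 0.279 and 0.946 by that test.

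**Figure D1:**
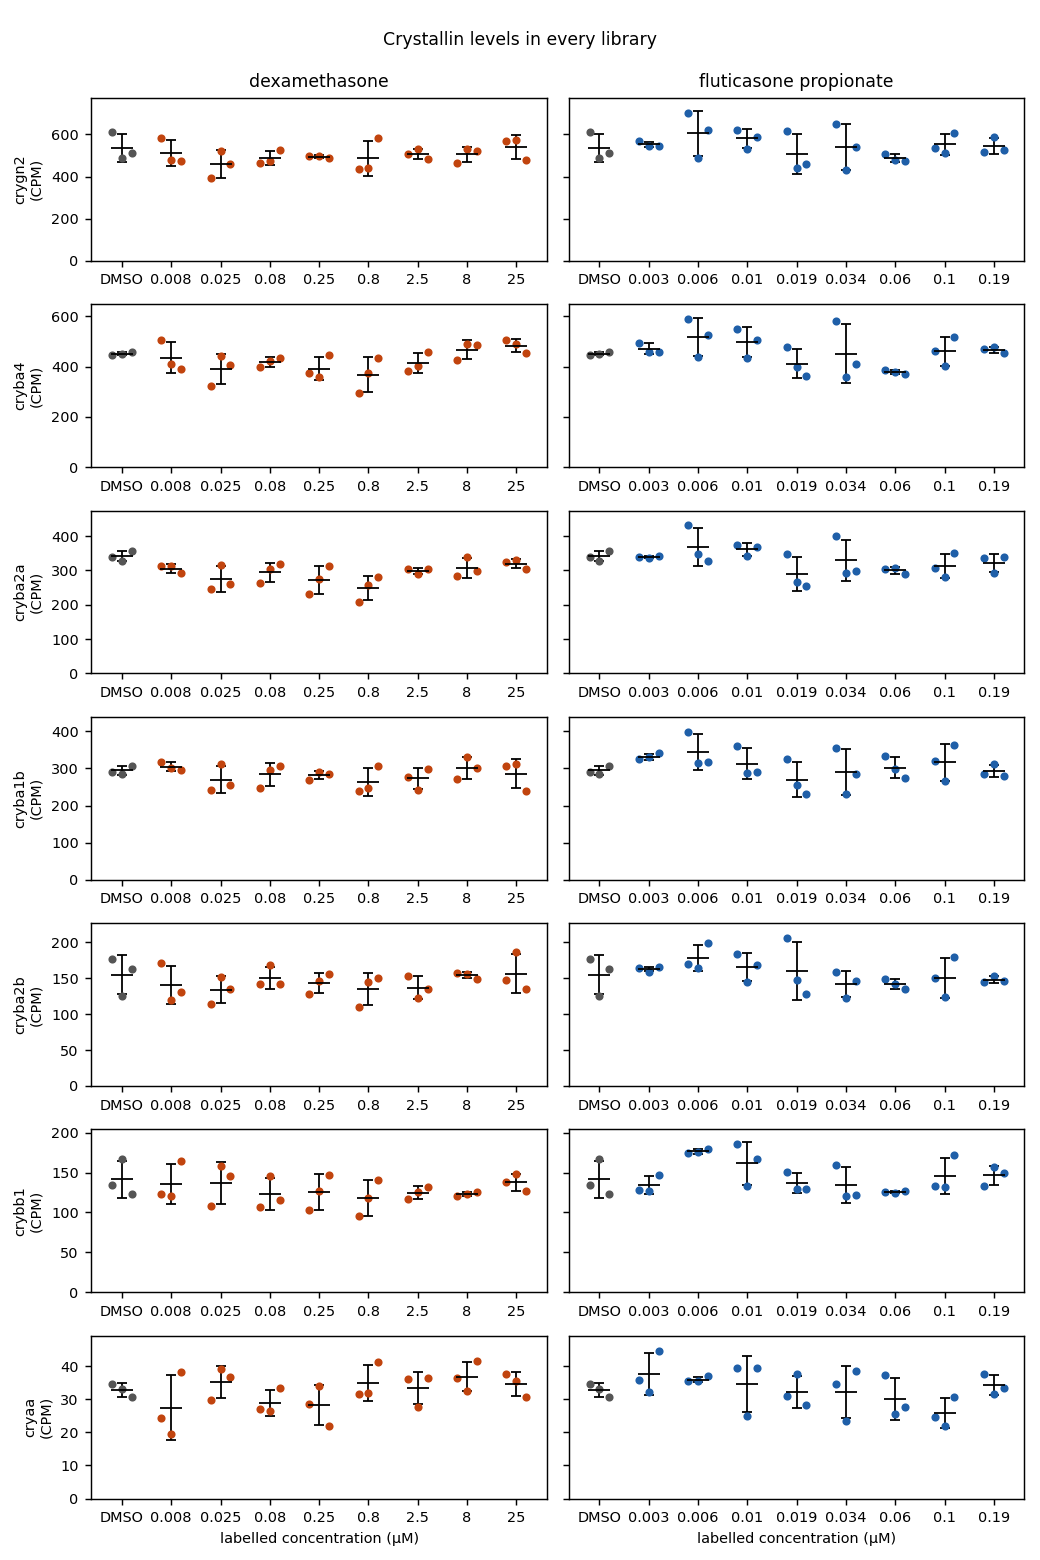
Level of each tested crystallin in all 51 libraries, in CPM, by labelled concentration (left column dexamethasone, right column fluticasone propionate, DMSO at the left of each panel); points are libraries, and lines the mean ± 1 SD of 3. Means at the highest concentrations lie close to those with DMSO, and the lowest cryba2a group is dexamethasone 0.8 µM at 248.7 CPM.

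The group means of several of the 7 tested crystallins had the same groups at their ends. Those of crygn2 lay between 458.7 CPM with dexamethasone 0.025 µM and 605.2 CPM with fluticasone propionate 0.006 µM. Those of cryba4 lay between 368.0 CPM with dexamethasone 0.8 µM and 518.0 CPM with fluticasone propionate 0.006 µM. The same groups marked the extremes of cryba1b, at 264.4 and 344.3 CPM, of cryba2a, at 248.7 and 369.0 CPM, and of crybb1, at 118.1 and 176.8 CPM. For cryaa the lowest mean was 25.8 CPM with fluticasone propionate 0.1 µM and the highest 37.6 CPM with 0.003 µM of the same compound. In the order of the 17 group means, neighbouring groups lay within 1 SD of each other in 16 of 16 pairs for 6 of the crystallins and in 15 of 16 for cryba2a, where the order itself brings neighbours close. For cryba2a the exception was fluticasone propionate 0.01 µM at 360.9 ± 17.7 CPM, against DMSO at 341.0 ± 15.1 CPM. Within groups, the SD of log2 CPM lay between 0.147 for cryba2a and 0.191 for cryba2b among the β- and γ-crystallins, and was 0.247 for cryaa. The median over all 18606 tested genes was 0.321, and over the 1760 with a mean of at least 100 CPM it was 0.143.

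At the highest concentration of dexamethasone none of the crystallins passed the test. For cryba2a the 3 libraries held 325.0, 329.3 and 305.5 CPM with dexamethasone 25 µM, against 340.4, 326.3 and 356.4 CPM with DMSO, and the groups overlapped. For crygn2 they held 569.7, 574.6 and 476.5 CPM with dexamethasone 25 µM, against 613.2, 486.8 and 510.1 CPM with DMSO, again overlapping. For cryaa they held 37.7, 35.4 and 30.7 CPM with dexamethasone 25 µM, against 34.7, 33.2 and 30.6 CPM with DMSO. The α-crystallin thus overlapped with DMSO as the others did. By edgeR's quasi-likelihood test with Benjamini-Hochberg adjustment over 18075 genes, 0 of 7 crystallins were called at an adjusted p under 0.05, where 1.32% of all tested genes were. Their log2 fold changes lay between −0.09 and 0.09, and the lowest adjusted p was 0.850. An unadjusted p under 0.05 occurred for 0 of 7, where 10.1% of all tested genes had one. The 95% intervals of all 7 lay within 0.5 of zero on the log2 scale, the lowest bound being −0.33 and the highest 0.48. The summed level of the 7 was 1958 ± 166 CPM with dexamethasone 25 µM and 1953 ± 80.1 CPM with DMSO (SD, n = 3 each).

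One crystallin passed the test against DMSO, cryba2a at a middle concentration of dexamethasone. With dexamethasone 0.8 µM its libraries held 208.8, 257.5 and 279.6 CPM, against 340.4, 326.3 and 356.4 CPM with DMSO. All 3 treated libraries lay below all 3 DMSO libraries. The log2 fold change was −0.45 ± 0.11 (SE), with a 95% interval of −0.67 to −0.24 and an adjusted p of 0.0158 by edgeR's quasi-likelihood test. It was 1 call among 7 crystallins, where 2.47% of all tested genes were called at that concentration, 1.33% lower and 1.14% higher. The acidic crystallin cryba4 held 296.4, 373.5 and 434.1 CPM with dexamethasone 0.8 µM, against 445.0, 450.2 and 458.4 CPM with DMSO, also without overlap. Its log2 fold change was −0.29 ± 0.11, and it did not pass, with an adjusted p of 0.149. The remaining 5 lay between −0.26 for crybb1 and 0.09 for cryaa, none called. The median log2 fold change of the 7 was −0.20, beside 0.0017 over all tested genes.

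The reads outside counted genes moved with this result. With dexamethasone 0.8 µM they made up 30.4 ± 2.76% of reads, against 25.0 ± 0.451% with DMSO (SD, n = 3 each), and the library with the lowest cryba2a had the highest share of the 51, 33.6%. Without that library the log2 fold change of cryba2a was −0.36 and its adjusted p 0.199, and the number of genes called at 0.8 µM over all genes was 32 in place of 447. With reads outside genes entered as a covariate, the log2 fold change was −0.22 and the adjusted p 0.736, and 4 genes were called over all genes. Without the 7 libraries above 30%, an alternative chosen after seeing the data, the values were −0.36 and 0.0588. Leaving out any single DMSO library also ended the call, with adjusted p values of 0.066, 0.0519 and 0.0659 and log2 fold changes of −0.45, −0.48 and −0.42. The edgeR test gave all of these values. The receptor target fkbp5 averaged 154.4 ± 48.9 CPM with dexamethasone 0.8 µM, against 127.2 ± 24.0 CPM with DMSO, a log2 fold change of 0.28 ± 0.20 that was not called (adjusted p = 0.512, edgeR).

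**Figure D2:**
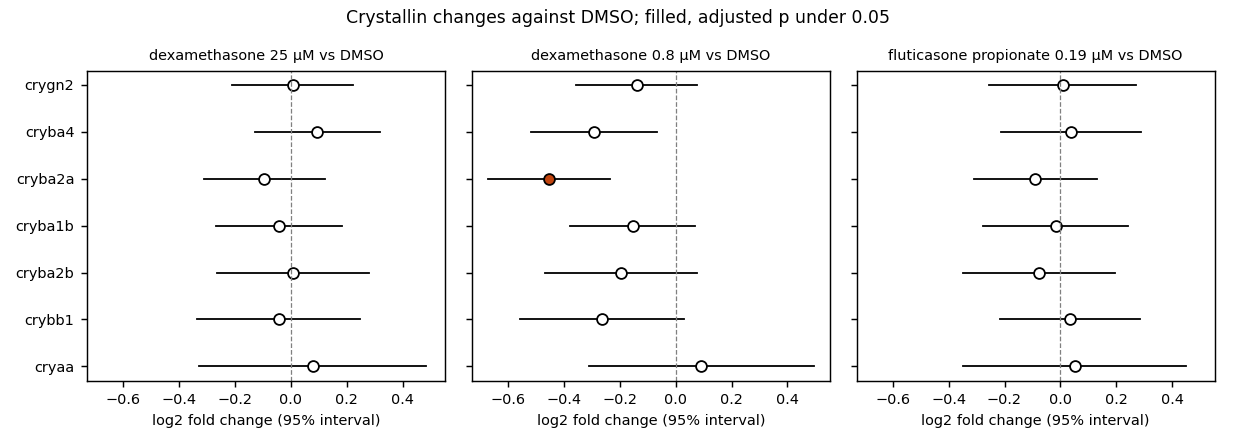
Log2 fold change against DMSO with its 95% interval (horizontal axis) for each tested crystallin (rows), at dexamethasone 25 µM, dexamethasone 0.8 µM and fluticasone propionate 0.19 µM. The filled point, cryba2a with dexamethasone 0.8 µM at −0.45, is the 1 value with an adjusted p under 0.05.

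Across the other concentrations of dexamethasone no crystallin was called. Of all tested genes, 0% were called at 0.008, 0.025 and 0.08 µM. The percentage was 0.0166% for 0.25 µM, 0.133% for 2.5 µM and 0.194% for 8 µM. Over the 56 tests of 7 crystallins at 8 concentrations, 1 was called and 3 crystallins gave an unadjusted p under 0.05 at some concentration. These were cryba2a at 3 concentrations, and cryba4 and crygn2 at 1 each. Among all tested genes the share with an unadjusted p under 0.05 lay between 3.45% at 0.008 µM and 17.3% at 0.8 µM. The log2 fold changes of cryba2a were −0.15, −0.31, −0.20, −0.32, −0.45, −0.19, −0.17 and −0.09 from the lowest to the highest concentration. All 8 were below zero and the lowest was in the middle of the range, but the 8 values share the 3 DMSO libraries. The libraries of cryba2a lay below those of DMSO without overlap at each concentration up to 2.5 µM, and overlapped at 8 and 25 µM. The share of all tested genes with such a separation was not counted, for this or the other separations given here. With fluticasone propionate 0.06 µM, which shares the same DMSO libraries, cryba2a and cryba4 also lay below DMSO without overlap. So did cryba4 with dexamethasone 0.025, 0.08, 0.25 and 0.8 µM. Other crystallins lay above DMSO without overlap with fluticasone propionate. These were cryba1b at 0.003 and 0.006 µM, and cryaa and crybb1 at 0.006 µM. For cryba4 the log2 fold changes lay between −0.29 and 0.09, for crybb1 between −0.26 and −0.04, and for cryaa between −0.26 and 0.15.

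Over all 51 libraries the crystallins with higher levels were lower where the share of reads outside genes was higher. For cryba2a, Pearson's r between log2 CPM and that share was −0.80 (adjusted permutation p = 1.4e-05 over the 7 crystallins) and Spearman's rho was −0.80 (adjusted permutation p = 2.33e-05). The raw permutation p of both was 1e-05, the smallest that 100000 resamples can give. These permutations, here and for the other crystallins, shuffled all 51 libraries regardless of group. They therefore treat differences between groups as differences between independent libraries. For cryba2a, r was −0.75 without the 2 libraries farthest from the median share and −0.77 on deviations from group means. It was −0.82 within the 24 dexamethasone libraries and −0.69 within the 24 fluticasone propionate libraries. No p was computed for these values. The relation thus held within each compound and within groups. With dexamethasone 0.025, 0.08, 0.25, 0.8 and 8 µM, replicate A had its group's highest share and lowest summed level of the 7 (1418 to 1758 CPM). The replicate letter and the share were not told apart there. For cryba4 r was −0.71 and rho −0.66, and for cryba1b r was −0.65 and rho −0.66, with adjusted permutation p of 1.4e-05 for r and 2.33e-05 for rho. For crygn2 and crybb1 r was −0.59, and rho was −0.60 and −0.58, with adjusted permutation p of 1.4e-05 for r in both. For cryba2b r was −0.52 and rho −0.54, with adjusted permutation p of 0.000117 and 0.000105. The α-crystallin cryaa gave r of −0.15 and rho of −0.16, with adjusted permutation p of 0.302 and 0.274. Its 32 to 78 reads per library carry more counting error, which can weaken both values. Without the 2 farthest libraries, r for the β- and γ-crystallins lay between −0.75 for cryba2a and −0.40 for cryba2b. The median r with that share over all 18606 tested genes was −0.03, a signed value that does not show how many genes followed it. Genes outside the lens followed it in both directions, such as the muscle gene mylz3 with r of −0.87 and the pigment gene oca2 with 0.88. How many of the tested genes had an r of such size was not counted, so the relation cannot be called particular to crystallins. Crystallin levels and the share of reads outside genes come from the same library. The part of that share in the crystallin levels was not tested beyond the fits given here.

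**Figure D3:**
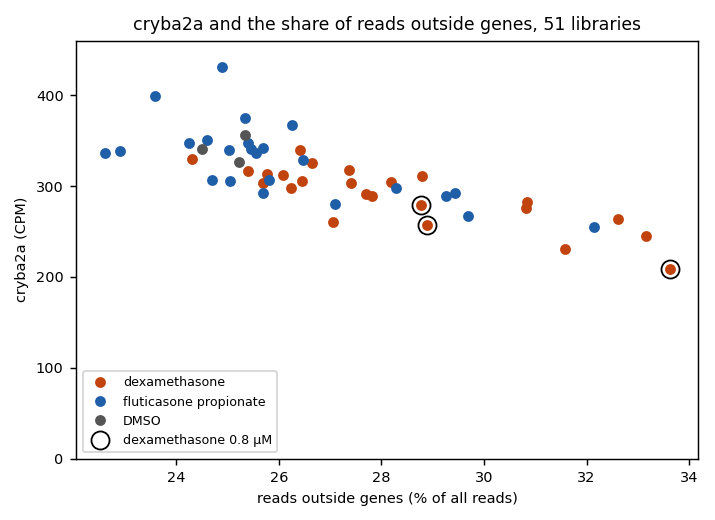
Level of cryba2a (vertical axis, CPM) against the share of reads outside counted genes (horizontal axis, percent of all reads), 1 point per library, coloured by compound, with dexamethasone 0.8 µM circled. Libraries with a higher share had lower cryba2a (Pearson's r = −0.80 over 51 libraries), and a dexamethasone 0.8 µM library at 33.6% and 208.8 CPM lies at the end of the cloud.

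Fluticasone propionate gave no crystallin call at any concentration. For cryba2a the libraries held 336.3, 292.1 and 338.7 CPM with fluticasone propionate 0.19 µM, against 340.4, 326.3 and 356.4 CPM with DMSO. For cryba4 they held 468.3, 476.9 and 453.2 CPM with fluticasone propionate 0.19 µM, against 445.0, 450.2 and 458.4 CPM with DMSO. For crybb1 they held 133.1, 157.0 and 149.1 CPM with fluticasone propionate 0.19 µM, against 134.7, 167.5 and 123.1 CPM with DMSO. The groups overlapped for all 3 genes. At 0.19 µM, 0 of 7 crystallins passed edgeR's test over 17877 genes, where 0.246% of all tested genes did. Log2 fold changes lay between −0.09 and 0.05, with a lowest adjusted p of 0.936 and with 95% bounds between −0.35 and 0.45. The summed level of the 7 was 1953 ± 50.2 CPM with fluticasone propionate 0.19 µM and 1953 ± 80.1 CPM with DMSO (SD, n = 3 each).

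At the lower concentrations of fluticasone propionate 0.00559% of all tested genes were called at 0.003 µM, and 0% at 0.006, 0.01, 0.019 and 0.034 µM. The percentage was 0.0168% for 0.06 µM and 0.0727% for 0.1 µM. The number of crystallins called was 0 at each of these. Over the 56 tests, cryba2a and crybb1 each had an unadjusted p under 0.05 at 1 concentration, and DESeq2 also made 0 calls. Among all tested genes the share with such a p lay between 3.1% at 0.003 µM and 7.61% at 0.19 µM. With fluticasone propionate 0.006 µM, crybb1 held 176.8 ± 2.90 CPM, against 141.8 ± 23.0 CPM with DMSO (SD, n = 3 each). This was the largest positive change against DMSO among the 7 tested of the 10, a log2 fold change of 0.31 ± 0.12 with an adjusted p of 0.9996 by edgeR. At the same concentration cryba1b had a log2 fold change of 0.22 ± 0.13 and cryba2a of 0.11 ± 0.11, neither called. The summed level of the 7 was also highest there, at 2227 ± 269 CPM, and its 3 libraries held 2503, 1966 and 2211 CPM, against 2035, 1875 and 1949 CPM with DMSO. One library of that group held the highest sum of all 51, and the summed levels of the groups overlapped.

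The slope of each crystallin on log10 concentration used the treated libraries alone, without DMSO. With dexamethasone, 0 of 7 slopes passed edgeR's test, where 2.16% of 17958 tested genes did. The slopes lay between −0.02 for crybb1 and 0.08 for cryaa, in log2 units per log10 unit of concentration, with a median of 0.02 beside −0.0038 over all tested genes. The lowest adjusted p was 0.550, and 0 of 7 had an unadjusted p under 0.05, where 11.4% of all tested genes had one. All 7 of the 95% intervals lay between −0.08 and 0.17, in the same units.

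With fluticasone propionate the 7 slopes were all below zero, and 0 passed edgeR's test, where 1.58% of 17701 tested genes did. The slopes lay between −0.17 ± 0.09 for cryaa and −0.07 ± 0.05 for crygn2 (SE), with a median of −0.09 beside −0.0029 over all tested genes. The smallest p was that of cryba2b, with a slope of −0.14 ± 0.06, an unadjusted p of 0.0144 and an adjusted p of 0.255. The slope of cryba2a was −0.11 ± 0.05 with an adjusted p of 0.388. These 2 of 7 had an unadjusted p under 0.05, where 11.4% of all tested genes had one. With reads outside genes entered as a covariate, the slope of cryba2a was −0.14 ± 0.04 and its adjusted p by edgeR 0.0376, which passes. The values of cryba2b were −0.16 ± 0.05 and 0.0738. In that fit 420 genes were called over all genes, in place of 279 without the covariate. The share of reads outside genes was 23.7 ± 1.71% with fluticasone propionate 0.19 µM and 25.4 ± 0.350% with 0.003 µM (SD, n = 3 each). It was highest in the middle of the range, at 29.1 ± 3.41% with 0.019 µM and 27.1 ± 3.1% with 0.034 µM. The members move together from library to library, so the shared sign of their slopes is not independent from gene to gene.

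**Figure D4:**
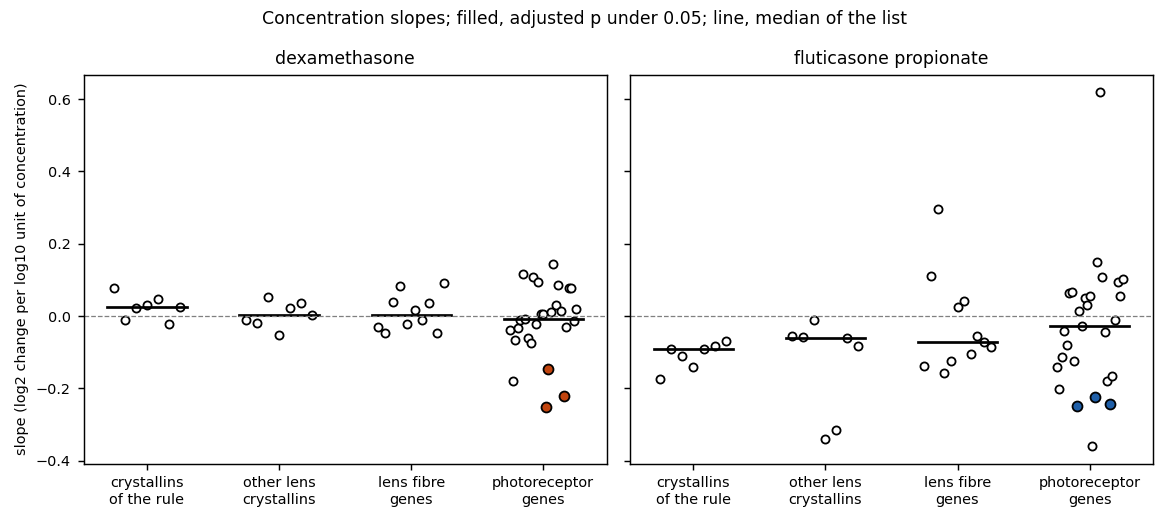
Slope of log2 level on log10 concentration (vertical axis) for the tested genes of 4 lists, in the 24 dexamethasone libraries (left) and the 24 fluticasone propionate libraries (right); points are genes, lines the median of a list, filled points an adjusted p under 0.05. None of the 7 crystallins is filled, and 3 photoreceptor genes are filled below zero in each panel.

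Dexamethasone and fluticasone propionate were compared directly at 3 pairs of groups with like measured concentrations. In structure, fluticasone propionate has a propionate ester and a fluoromethyl thioester that dexamethasone lacks. For dexamethasone 0.08 µM (measured 0.055) against fluticasone propionate 0.19 µM (measured 0.0597), 0 of 7 crystallins differed by edgeR's test, where 0.344% of 18606 tested genes did. Their log2 differences lay between −0.23 and 0.05 with a lowest adjusted p of 0.575, and 95% bounds of −0.64 and 0.33. The largest was crybb1 at −0.23 ± 0.14. In the same pair fkbp5 was lower with dexamethasone by edgeR's test, with a log2 difference of −2.06 ± 0.24 and an adjusted p of 2.89e-06. For 0.025 µM (measured 0.0189) against 0.06 µM (measured 0.0158) and for 0.008 µM (measured 0.0066) against 0.019 µM (measured 0.0072), 0 of 7 crystallins and 0% of all tested genes differed. The 95% bounds of the crystallins were −0.40 and 0.66 in the middle pair and −0.66 and 0.43 in the lowest pair. In all 21 of these tests the unadjusted p was above 0.05, and DESeq2 also made 0 calls. Of all tested genes, 10.5%, 4.36% and 5.44% had an unadjusted p under 0.05 in the highest, middle and lowest pair.

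The 2 compounds' slopes were also compared with each other in the 48 treated libraries. The difference in slope, dexamethasone minus fluticasone propionate, was above zero for all 7 crystallins and passed for 0 of 7, where 0% of 18527 tested genes passed. It was 0.25 ± 0.10 for cryaa, 0.17 ± 0.07 for cryba2b and 0.13 ± 0.06 for cryba2a (SE), with unadjusted p of 0.0138, 0.00942 and 0.0313 by edgeR's test. Of all tested genes, 5.15% had an unadjusted p under 0.05. The adjusted p was 0.854 or higher for each of the 7. DESeq2 made 0 calls for this difference. The slopes cover unlike ranges, 0.008 to 25 µM for dexamethasone and 0.003 to 0.19 µM for fluticasone propionate, so they are not compared at like concentrations. The members move together from library to library, so the shared sign of the 7 differences is not independent from gene to gene.

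Over the 51 libraries the tested β- and γ-crystallins varied together, and cryaa followed them less closely. These correlations describe libraries that share depth and composition, and no p is attached to them. Among the 15 pairs of the 6 β- and γ-crystallins, Pearson's r of log2 CPM lay between 0.55 and 0.83 with a median of 0.70. The highest was between the acidic crystallins cryba2a and cryba4. On deviations from group means the 15 values lay between 0.42 and 0.80, with a median of 0.66, so the libraries of a group also varied together. The 6 pairs of cryaa with the others lay between 0.18 and 0.32. With 32 to 78 reads per library, cryaa carries more counting error than the others, which can lower such a correlation. The part of counting error in these values was not tested. The share of cryba2a in the sum of the 7 lay between 14.1 and 18.5% over the 51 libraries, while that of cryaa lay between 1.11 and 2.25% and the sum itself between 1418 and 2503 CPM. With dexamethasone 0.8 µM that share was 15.04 ± 0.811%, against 17.5 ± 0.780% with DMSO (SD, n = 3 each).

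**Figure D5:**
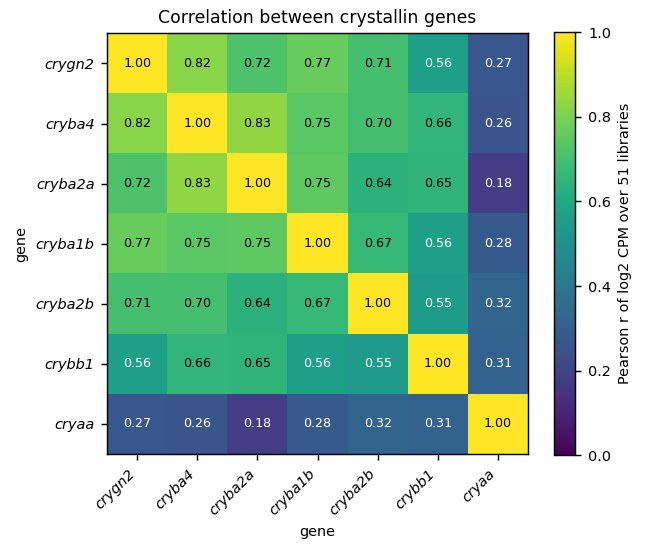
Pearson's r of log2 CPM between each pair of the 7 tested crystallins over 51 libraries (both axes list the genes, the colour and the printed value give r). The 6 β- and γ-crystallins form a block with values between 0.55 and 0.83. The values of cryaa reach 0.32, at 32 to 78 reads per library, where counting error can lower them.

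The genes most like the crystallins were found by the correlation of log2 CPM with the mean standardised level of the 7, over the 51 libraries. Outside the crystallins the 4 highest were APY78_gp10 (r = 0.81), fkbp7, actc1b and mylz3 (r = 0.79 each). The gene fkbp7 encodes a peptidyl-prolyl isomerase of the endoplasmic reticulum, actc1b a muscle actin and mylz3 a myosin light chain of fast muscle. These 3 are not lens genes. The correlations of the 4 genes with the share of reads outside genes were −0.82, −0.79, −0.76 and −0.87 in the same order. Among other lens crystallins the likeness was 0.90 for crygmxl2, 0.83 for crybb1l1, 0.82 for cryba1l1 and 0.59 for crygmx. It was 0.35 for crygm7, 0.06 for cryba1l2, 0.04 for crybb1l2 and −0.34 for crybb3, and the median of these 8 was 0.47. The median over 11 lens fibre genes was 0.28 and over all tested genes 0.01.

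Another 20 genes carry symbols of lens crystallins, and 7 of them were tested with each compound. None of these 7 passed edgeR's test against DMSO at any of the 16 concentrations or in either slope. The number with an unadjusted p under 0.05 was highest with dexamethasone 0.025 and 0.8 µM, at 3 of 7 each, where 6.94% and 17.3% of all tested genes had one. It was 0 of 7 in both slopes, where 11.4% of all tested genes had one in each, and 0 of 7 at dexamethasone 25 µM and fluticasone propionate 0.19 µM, where 10.1% and 7.61% had one. Among them crygmxl2, a γM-type crystallin of fish, averaged 435.6 CPM with a range of 321.2 to 559.8 CPM, and crygmx 212.5 CPM with a range of 167.5 to 306.5 CPM. The slope of crygmxl2 was 0.0027 ± 0.025 with dexamethasone and −0.08 ± 0.05 with fluticasone propionate. The genes crygm7 and crybb3 averaged 4.80 and 3.70 CPM. With dexamethasone 0.8 µM the log2 fold change of crygmxl2 was −0.31 ± 0.11 and that of crybb1l1, named after its value was seen, −0.35 ± 0.12, with adjusted p of 0.107 and 0.101 by edgeR. The third gene with an unadjusted p under 0.05 there was crybb3, with the opposite sign, a log2 fold change of 1.11 ± 0.54 and an adjusted p of 0.273 by edgeR. Reads of closely related crystallin genes can align to several places and then stay uncounted, so their levels may be understated to different degrees.

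Genes of the lens fibre cell also gave no calls. Of 15 such genes in the files, 10 were tested with dexamethasone and 11 with fluticasone propionate, and 0 passed edgeR's test at any concentration or in either slope. An unadjusted p under 0.05 was most frequent with dexamethasone 0.8 µM, for 4 of 10, where 17.3% of all tested genes had one. It occurred for 0 of the fibre genes in both slopes, where 11.4% of all tested genes had one in each. Several members were present, with lim2.4, a lens fibre membrane protein, at a mean of 92.8 CPM, grifin, a lens galectin, at 18.6 CPM and mipa, the lens aquaporin, at 12.8 CPM. Others were near the detection limit, with gja8b at 3.05 CPM, gja8a at 2.59 CPM, caprin2 at 1.82 CPM and tdrd7a at 0.90 CPM. The gene dnase1l1l, which in zebrafish encodes an enzyme that clears DNA from lens fibres, averaged 7.32 CPM. The slope of lim2.4 was 0.04 ± 0.03 with dexamethasone and −0.05 ± 0.08 with fluticasone propionate. Of 7 lens transcription factors tested, 1 was called. At that concentration 2.47% of all tested genes were called, and 1.14% of all tested genes were called higher. With dexamethasone 0.8 µM, prox1a, a homeobox factor of lens fibre differentiation that liver and other tissues also use, averaged 237.6 ± 5.08 CPM, against 170.2 ± 16.1 CPM with DMSO (SD, n = 3 each). Its log2 fold change was 0.48 ± 0.11, with an adjusted p of 0.0153 by edgeR, in the libraries whose reads outside genes are given above. Over the 51 libraries, Pearson's r of its log2 CPM with the share of reads outside genes was 0.58. In both slopes 0 of 7 lens transcription factors passed.

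Photoreceptor genes, from the neighbouring retina, did pass the test in part. With dexamethasone 25 µM, 4 of 27 fell and 0 rose, with dexamethasone 0.8 µM 2 of 27 fell, and with fluticasone propionate 0.19 µM 0 of 27 were called. Of all tested genes, 1.32%, 2.47% and 0.246% were called in these comparisons. The blue-light opsin gene opn1sw2 averaged 104.3 ± 17.2 CPM with dexamethasone 25 µM and 168.7 ± 5.87 CPM with DMSO, a log2 fold change of −0.69 ± 0.12 with an adjusted p of 0.000406. The ultraviolet opsin gene opn1sw1 averaged 84.3 ± 14.8 CPM with dexamethasone 25 µM and 175.3 ± 8.40 CPM with DMSO, a log2 fold change of −1.05 ± 0.25 with an adjusted p of 0.0458. The calcium sensor gene rcvrn2 averaged 72.5 ± 12.8 CPM with dexamethasone 25 µM and 121.0 ± 4.70 CPM with DMSO (SD, n = 3 each), a log2 fold change of −0.76 ± 0.13 with an adjusted p of 0.000302, all by edgeR. In the slopes, opn1sw1, opn1sw2 and rcvrn2 fell with dexamethasone, and gngt2b, opn1sw2 and rcvrn2 fell with fluticasone propionate, 3 of 27 each, where 2.16% and 1.58% of all tested genes were called. The crystallins and lens fibre genes had 0 calls in those slopes, with dexamethasone 25 µM and with fluticasone propionate 0.19 µM. With dexamethasone 0.8 µM, 1 of the 7 crystallins, cryba2a, was called lower, and 0 lens fibre genes were called. The difference between the lists was not tested, and the lists were chosen with earlier results of these data known. Not all photoreceptor genes were low with dexamethasone 25 µM. There rom1a, rom1b and grk1a had their highest group means, at 39.25, 42.34 and 58.58 CPM. The median photoreceptor log2 fold change with dexamethasone 25 µM was −0.04, beside 0.0065 for the 7 crystallins and 0.0040 over all tested genes.

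The α-crystallins belong to the small heat shock proteins, and 7 other genes of that family were tested. In the dexamethasone slopes 2 of 7 rose by edgeR's test, where 2.16% of all tested genes were called in either direction. The slope of hspb6 was 0.37 ± 0.09 with an adjusted p of 0.0199, and that of hspb8, a muscle and stress chaperone, 0.15 ± 0.04 with an adjusted p of 0.0268. Against these, the slope of cryaa with dexamethasone was 0.08 ± 0.05 with an adjusted p of 0.550. No small heat shock gene passed at any single concentration of either compound or in the fluticasone propionate slopes.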

How the data were processed

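Per the labels' protocols, total RNA of pooled homogenates went into QuantSeq 3′ libraries that carried unique molecular identifiers. For each compound the authors deposited gene counts, with the same DMSO columns in both tables. The submitters' processing notes name the aligner STAR 2.7.10a, the counter HTSeq 2.0.1, and also bcl2fastq 2.20.0, MultiQC 1.12, FastQC and edgeR. Not given in the sources used here were the genome build, the strand setting and the use of molecular identifiers, so counts are counted reads and limits cover counting error only. Reads assigned to no gene were not part of library sizes or tests: 22.6 to 33.6% of reads lay outside counted genes, 0.592 to 0.802% were ambiguous, 6.94 to 8.77% did not align and 10.6 to 12.2% had several alignments. No sequence or coordinate is given.

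Low counts were removed by filterByExpr with the groups given, a minimum count of 10 and a minimum total of 15. A gene had to reach the CPM of 10 counts at median depth in at least 3 libraries, the size of a group. TMM scaling and the robust quasi-likelihood F-test of edgeR 4.0.16 (R 4.3.3) followed. Benjamini-Hochberg adjustment ran over all tested genes, with a threshold of 0.05. The 27 libraries of a compound and DMSO entered 1 fit of 9 groups. Slopes used log10 nominal concentration in treated libraries, and direct comparisons all 51 libraries. The fits were tested on simulated data. CPM in the text used TMM factors between 0.945 and 1.078. Log2 CPM for correlations had a prior count of 2.

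The crystallins and the other lists were chosen with earlier results of these data known. Other crystallins and genes of each list are named by smallest p over the slopes, up to 4 each, and like genes as the 5 highest correlations, of which 1 is not reported here. Libraries of a group differed by more than sampling noise (chi-square per degree of freedom 1.47 to 3.14 over 51 pairs).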

Additional observations from a re-analysis of the deposited data

How the results depend on the processing

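With dexamethasone against DMSO, 1 crystallin call was made. The number was 0 when reads outside genes entered as a covariate and 0 without the 7 libraries above 30%, an alternative chosen after seeing the data. Fits that each left out 1 library gave 0 to 1 calls. The call ended without dexamethasone 0.8 µM replicate A, where log2 fold change −0.36 and adjusted p 0.199 were found, and without any DMSO library. It was kept in 23 of the 27 such fits, whose values lay between −0.54 and −0.36. Most of these fits left out a library of neither compared group, which could hardly move the value. Among the 6 compared libraries, only leaving out dexamethasone 0.8 µM replicate B or C kept the call, with adjusted p of 0.0256 and 0.0142 by edgeR. The cause was not tested. Under DESeq2 1.42.0, RLE normalisation, no filter, all 51 libraries in one fit or the 6 compared libraries alone, the number stayed 1. With the replicate letter as a replicate block it was also 1, with a log2 fold change of −0.46 and an adjusted p of 0.00294 for cryba2a, and 847 in place of 447 genes were called at 0.8 µM. The correlation of same-lettered libraries' deviations lay between −0.14 and 0.09 over 19 comparisons, and none had every pair above 0.1. Those comparisons did not set groups of the same compound against each other, so they cannot show whether letters matter there. Replicate A had its group's highest share of reads outside genes at every dexamethasone concentration but 0.008 µM (26.65 to 33.62%). With fluticasone propionate it had the lowest at every concentration but 0.006 and 0.1 µM (22.6 to 25.4%). The part of the letter in the calls was not tested beyond this block. In the fluticasone propionate slopes the number of calls was 0, and 1 when reads outside genes entered as a covariate. Over all genes, 420 in place of 279 were then called. No other count of crystallin calls changed, under the replicate block or any other alternative. Of 4648 values for single crystallins under alternatives, 4641 kept their side of the threshold, 6 lost and 1 gained a call. As only 1 main value was called, nearly all of these could not lose a call. The 6 losses were all of that value, cryba2a with dexamethasone 0.8 µM. No called value changed sign, and 156 uncalled values did. Depth limits cryaa, with 32 to 78 reads per library, and leaves cryaba, cryabb and crybb2 untested.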

Other observations

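The symbol crybg1b belongs to a gene with βγ-crystallin domains that is not a lens crystallin, and it was chosen after its values were seen. Its libraries held 60.8, 64.7 and 53.5 CPM with fluticasone propionate 0.19 µM and 49.7, 55.6 and 46.1 CPM with dexamethasone 25 µM, against 43.8, 37.8 and 40.1 CPM with DMSO. All libraries of both compounds lay above all DMSO libraries at these concentrations. Both comparisons share the same DMSO libraries, and the share of all tested genes with such a separation was not counted. Its slope with fluticasone propionate was 0.42 ± 0.08 (SE, log2 units per log10 unit of concentration), with an adjusted p of 0.00163 by edgeR's quasi-likelihood test. Its slope with dexamethasone was 0.09 ± 0.04 with an adjusted p of 0.363, and the difference between the slopes, −0.33 ± 0.09 for dexamethasone minus fluticasone propionate, had an adjusted p of 0.667. Against DMSO it was not called at fluticasone propionate 0.19 µM, with a log2 fold change of 0.54 ± 0.18 and an adjusted p of 0.309, nor at dexamethasone 25 µM, with 0.31 ± 0.17 and 0.570.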
